A study of Homo sapiens with 6 samples.

Results

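The genes described here lie on human chromosome 7 from TNS3 on the short arm to RCC1L on the long arm, across the centromere. A gene was included when its start on GRCh38 lay in that stretch and at least 1 probe set on the array carried its name alone, and EGFR was left out. This gave 54 genes with 77 probe sets, among 11963 genes with 19064 named probe sets on the array. Of the 54 genes, 49 are protein coding, against 116 protein-coding genes annotated in the stretch, and 11 more probe sets there carry several gene names and were not used. The ends of the stretch were chosen from the differences of these genes between the isolates and the parental cells, so those differences are given below as a description, with no p-value. Counts of genes past limma's threshold among them stand beside the share over all genes. DNA copy number was not measured.

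The cells were MDA-MB-231, an established line of human breast cancer with a mesenchymal look, and 3 populations of it were measured on 6 Affymetrix expression arrays, 2 for each population, from total RNA. S1a and S1b are labelled as populations 1 and 2 of isolated seeder cells, that is, tumour cells that can return from the circulation to a tumour, and both were set against the parental line from which they derive. All cells were grown subconfluent in DMEM with 10% FBS, and no label gives a genetic change or a drug for any group. The arrays of a population are called biological replicates without naming separate cultures, so the p-values below measure the spread between these arrays, which may be technical. No isolated population of cells other than seeders was included. In RNA from whole cultures, fewer cells with a transcript and less of it per cell cannot be told apart.

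Genes that neighbour each other on a chromosome differ in what they do, but they share their DNA dosage. Cancer cell genomes often carry gains and losses of long stretches, and the transcripts of many genes in such a stretch then move in the same direction. The long-arm end of this stretch is the Williams-Beuren region, whose loss from 1 homologue in the germline causes Williams-Beuren syndrome, and the band next to the centromere on the short arm holds EGFR, a receptor gene that is often amplified in tumours. Between them lie a cluster of zinc finger genes and several enzymes of lysosome and nitrogen metabolism.

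Promoters are shown for 4 genes, the pair CLDN4 and TMEM248 from the genes with lower signal in the isolates and the pair NIPSNAP2 and CHCHD2 from the short-arm block without lower genes, because each has a single start in RefSeq (GRCh38.p14). RefSeq promoters were found for 40 of the 54 genes. Each line gives the 250 bases before the start, 5′ to 3′, with CG dinucleotides, the sites of DNA methylation, in capitals.
CLDN4 (chr7:73830746-73830995, plus strand): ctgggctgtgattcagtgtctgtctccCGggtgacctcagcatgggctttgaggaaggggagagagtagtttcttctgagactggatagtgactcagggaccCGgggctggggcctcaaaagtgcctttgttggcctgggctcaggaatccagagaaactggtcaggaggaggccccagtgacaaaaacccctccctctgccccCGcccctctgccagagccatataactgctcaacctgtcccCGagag
TMEM248 (chr7:66920975-66921224, plus strand): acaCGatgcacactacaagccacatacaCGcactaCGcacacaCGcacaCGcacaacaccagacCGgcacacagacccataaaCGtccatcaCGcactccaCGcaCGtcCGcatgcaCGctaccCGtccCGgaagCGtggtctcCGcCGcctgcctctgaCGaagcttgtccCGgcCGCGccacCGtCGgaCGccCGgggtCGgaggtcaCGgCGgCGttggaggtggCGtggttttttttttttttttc
NIPSNAP2 (chr7:55964335-55964584, plus strand): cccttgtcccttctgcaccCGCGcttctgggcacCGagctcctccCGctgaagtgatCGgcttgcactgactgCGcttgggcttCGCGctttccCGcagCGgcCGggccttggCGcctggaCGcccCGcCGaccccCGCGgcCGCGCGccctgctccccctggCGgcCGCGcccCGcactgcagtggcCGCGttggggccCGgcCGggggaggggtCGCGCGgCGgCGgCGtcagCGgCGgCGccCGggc
CHCHD2 (chr7:56106477-56106726, minus strand): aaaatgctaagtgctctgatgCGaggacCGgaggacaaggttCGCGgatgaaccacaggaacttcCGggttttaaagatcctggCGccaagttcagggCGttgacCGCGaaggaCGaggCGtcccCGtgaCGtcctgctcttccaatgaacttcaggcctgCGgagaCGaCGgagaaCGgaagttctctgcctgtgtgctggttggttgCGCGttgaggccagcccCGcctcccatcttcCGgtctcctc

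The TMEM248, NIPSNAP2 and CHCHD2 promoters held 30, 38 and 21 CG dinucleotides and that of CLDN4 only 4, an observed over expected ratio of 1.3, 0.974, 0.96 and 0.185. Over the 63 promoters of the 40 genes, the median ratio was 0.791 and the median GC content 66%, against 0.558 and 58% over 35116 promoters of all annotated genes. A GC box (GGGCGG on either strand) stood in 61.9% of the promoters in the stretch, a CCAAT box (CCAAT on either strand) in 30.2% and a TATA box (TATAAA on either strand) in 4.76%. The same letters stood in 42.6%, 32% and 10.7% of all promoters. Split by position, a GC box stood in 6 of 11 promoters of the short-arm block from LANCL2 to CHCHD2 and in 33 of 52 of the others. The 11 promoters belong to 5 genes, without LANCL2, PSPH and CCT6A. Most of the 11, and most of those with a GC box, are starts of VOPP1, so the split mostly describes that gene. All these counts are matches of letters in a window and not binding sites. CLDN4 had 1 GC box and CHCHD2 1 CCAAT box, and the TMEM248 and NIPSNAP2 windows held none of these letters.

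Every array had a trimmed mean of 500.2 signal units, and median signals were 87.6 to 91.7 units on the isolate arrays and 98.6 to 106 on the parental arrays. GAPDH, read near its 3′ end over its 5′ end, gave ratios of 0.976 to 0.998 on the isolate arrays and 1.06 to 1.09 on the parental arrays, and spike-in transcripts had mean log2 signals of 7.92 to 8.51 and 7.38 to 8.18. Median signal and the GAPDH ratio did not overlap between isolate and parental arrays, and the spike-in means did. Results with each array centred on its median signal are given below. The part of the GAPDH ratio and of the spike-in means in the results was not tested. The labelled cell type was checked against 10 markers: VIM, CD44, MSN, AXL and CAV1 had mean signals from 3387 to 24223 units in all populations, and ESR1, PGR and CDH1 at most 54.8 units. ERBB2 had 168, 160 and 238 units in S1a, S1b and parental cells, and EPCAM had 436, 359 and 450 units.

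Of the 54 genes, 40 had a mean signal over the 6 arrays of at least 44 units, the 40th percentile of all probe sets, and were among the 7791 genes tested. In 28 of the 40, all 4 isolate arrays lay below both parental arrays, and in 6 all 4 lay above. Among the 28 were 5 genes, CLDN4, STAG3L4 and the 3 zinc finger genes, whose isolate means both lay below 44 units. These 5 passed the filter only through their parental arrays. The share of all genes with both isolates on the same side was not counted, and shares for each isolate are given below. In S1a the lower genes numbered 21 and the higher ones 4 by limma (adjusted p below 0.05), and in S1b 23 and 3. Over all 7791 genes tested, 19.9% were called lower and 19.4% higher in S1a, and 20.9% lower and 20.7% higher in S1b. The 2 comparisons share the parental arrays, and because the stretch was chosen on them, nothing is read from these counts. Non-overlapping arrays were lower for 37.1% of all genes in S1a and 36% in S1b, and higher for 33.3% and 33.7%. A change of at least 1.5-fold was seen in 20 lower and 2 higher members in S1a (15.5% and 11.2% of all genes), and in 24 lower and 1 higher in S1b (16.7% and 11.9%). The counts by limma also moved when single arrays were left out, as described in the last section.

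The median log2 change of the 40 genes was -0.60 in S1a and -0.78 in S1b, where the median of all genes was -0.03 and -0.02. Centring each array on its median signal moved the median of all genes to 0.16 and 0.17. The calls were then 17 lower and 7 higher in S1a and 18 lower and 6 higher in S1b. Over all genes, the same setting called 11.2% lower and 30% higher in S1a, and 12.7% and 31.4% in S1b. Of the 40 genes, 27 were read through probe sets whose suffix marks probes shared between transcripts or genes. Among the 13 others, 11 lay below both parental arrays on all isolate arrays and 1 above. CLDN4, among the 11, passed the filter only through its parental arrays. Over all genes, non-overlapping arrays were lower for 37.1% in S1a and 36% in S1b, and higher for 33.3% and 33.7%. The share with both isolates on the same side was not counted, so nothing is read from this count.

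**Figure D1:**
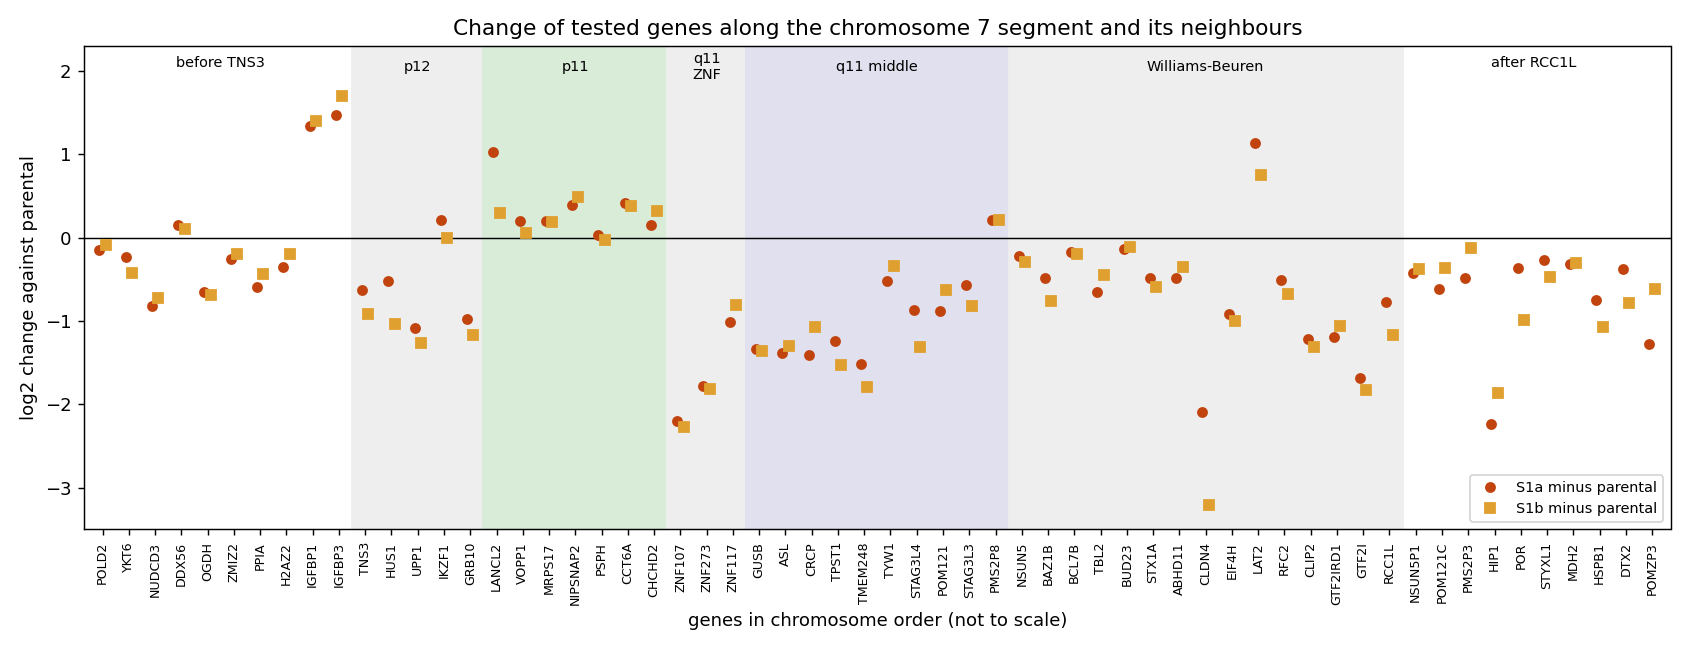
Log2 change of S1a (circles) and S1b (squares) against parental for the 40 tested genes and the 10 tested genes on either side, in chromosome order with equal spacing. Most points inside the stretch lie below 0, those of the p11 block lie close to it or above, and LAT2 stands above 0 among lower neighbours.

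The short-arm start of the stretch, here called p12, ran from TNS3 to COBL and held 5 tested genes. Limma called 4 of them lower in both isolates, beside 19.9% of all genes in S1a and 20.9% in S1b. TNS3 encodes tensin 3, which links integrins to actin, and its signal was 719 and 776 units in S1a and 599 and 620 in S1b, against 1054 and 1264 in parental cells. All isolate arrays lay below both parental arrays, a log2 change of -0.62 in S1a and -0.92 in S1b. HUS1, a subunit of the DNA damage checkpoint clamp, had 183 and 199 units in S1a and 139 and 125 in S1b, against 298 and 255 in parental cells. Its groups did not overlap, with log2 changes of -0.52 and -1.04, but a second, dimmer HUS1 probe set had 123 and 68.5 units in S1a, against 164 and 121 in parental cells, which overlap. UPP1, a uridine phosphorylase of pyrimidine salvage, had 594 and 537 units in S1a and 505 and 486 in S1b, against 1227 and 1168 in parental cells. It stood at 47.2% of its parental signal in S1a and 41.4% in S1b.

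GRB10, an adaptor that binds the insulin receptor, gave the same picture on each probe set. Its brightest probe set averaged 425 ± 15 units in S1a and 371 ± 28.1 in S1b, against 838 ± 41.8 in parental cells (SD, n = 2 each), and its log2 change was -0.97 and -1.17. The other GRB10 probe sets above 44 units gave -0.98 and -0.98 in S1a and -0.86 and -1.02 in S1b. IKZF1, a lymphoid transcription factor, was the exception in p12, with 61.8 and 118 units in S1a and 108 and 49.2 in S1b, against 49.2 and 108 in parental cells. Its arrays overlapped in all groups and its replicates differed more than its means.

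The p11 block, from LANCL2 to CHCHD2 next to the centromere, held 7 tested genes, and none had lower signal in the isolates on non-overlapping arrays. In 5 of the 7, all isolate arrays lay above both parental arrays. Over all genes, non-overlapping arrays were higher for 33.3% in S1a and 33.7% in S1b. Limma called 3 of the 7 higher and none lower in each isolate, beside 19.4% of all genes called higher in S1a and 20.7% in S1b. The median signal of the block was 114% of parental in S1a and 122% in S1b, against 52.9% and 49.8% for the 33 tested genes elsewhere in the stretch. LANCL2, a lanthionine synthetase-like protein, had 913 and 1092 units in S1a and 619 and 580 in S1b, against 514 and 464 in parental cells. Its S1a arrays were far above the others and its S1b arrays slightly above parental, with log2 changes of 1.03 and 0.29.

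NIPSNAP2, a mitochondrial protein, had 2404 and 2054 units in S1a and 2218 and 2552 in S1b, against 1755 and 1631 in parental cells. All isolate arrays were higher, with log2 changes of 0.39 and 0.49. CCT6A, a subunit of the chaperonin that folds actin and tubulin, had 7534 and 7993 units in S1a and 7638 and 7464 in S1b, against 5532 and 6100 in parental cells. Its log2 change was 0.42 and 0.38, and a second, dimmer CCT6A probe set gave 0.83 and 0.98. CHCHD2, a mitochondrial regulator of respiration, had 10787 and 11306 units in S1a and 12932 and 11868 in S1b, against 9815 and 10048 in parental cells. MRPS17, a protein of the mitochondrial ribosome, had 2348 and 2233 units in S1a and 2341 and 2231 in S1b, against 1827 and 2190 in parental cells. For both genes the isolate arrays lay above the parental ones, by small margins for MRPS17, with log2 changes of 0.15 and 0.32 for CHCHD2 and of 0.19 in both isolates for MRPS17.

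The remaining genes of the p11 block overlapped between groups. VOPP1, a vesicle membrane protein, averaged 1821 ± 56.3 units in S1a and 1656 ± 46.5 in S1b, against 1604 ± 312 in parental cells (SD, n = 2 each). PSPH, the phosphatase that completes serine synthesis, averaged 1091 ± 157 units in S1a and 1042 ± 10.2 in S1b, against 1079 ± 239 in parental cells. A dimmer PSPH probe set without shared probes gave log2 changes of 0.45 and 0.56 on non-overlapping arrays, so the PSPH probe sets disagree.

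**Figure D2:**
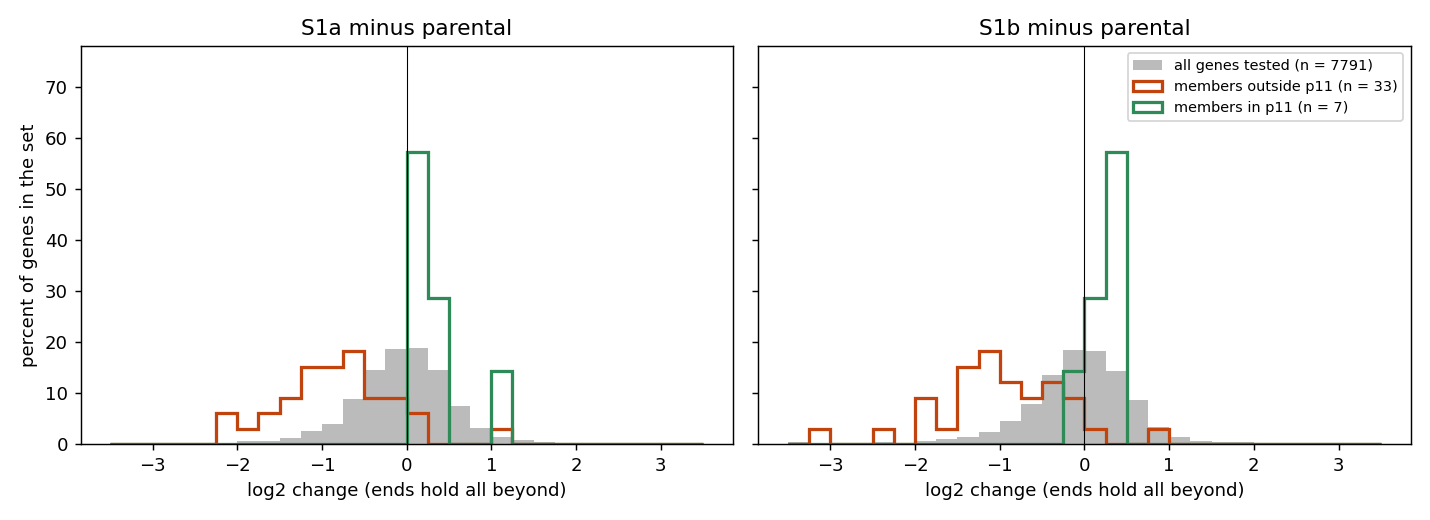
Percent of genes by log2 change against parental, in S1a on the left and S1b on the right, for all 7791 genes tested (grey), the 33 tested members outside the p11 block (red) and the 7 in it (green). The red outline is shifted to the left of the grey distribution and the green one sits from just below 0 upwards.

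On the long arm, the 3 tested zinc finger genes next to the centromere had lower signal in both isolates on non-overlapping arrays. Over all genes, 37.1% were lower in that way in S1a and 36% in S1b. Both isolate means of each gene lay below 44 units, so these 3 passed the filter only through their parental arrays. Nothing is read from this count. The KRAB zinc finger genes of this cluster encode DNA-binding repressors, many of them directed at transposable elements. ZNF107 had 26.9 and 38.9 units in S1a and 27.2 and 34.1 in S1b, against 162 and 163 in parental cells. ZNF273 had 32.8 and 48.2 units in S1a and 30.1 and 49.8 in S1b, against 164 and 132 in parental cells. The groups were far apart for both genes, and because the isolate means lay below 44 units the difference is given as at least 3.7-fold for ZNF107 and at least 3.36-fold for ZNF273, in each isolate. ZNF117 averaged 33.4 ± 11.2 units in S1a and 38.8 ± 12.1 in S1b, against 70.2 ± 14.4 in parental cells (SD, n = 2 each). All these probe sets carry the suffix for cross-hybridising probes, so the share of each zinc finger gene in its signal is uncertain.

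**Figure D3:**
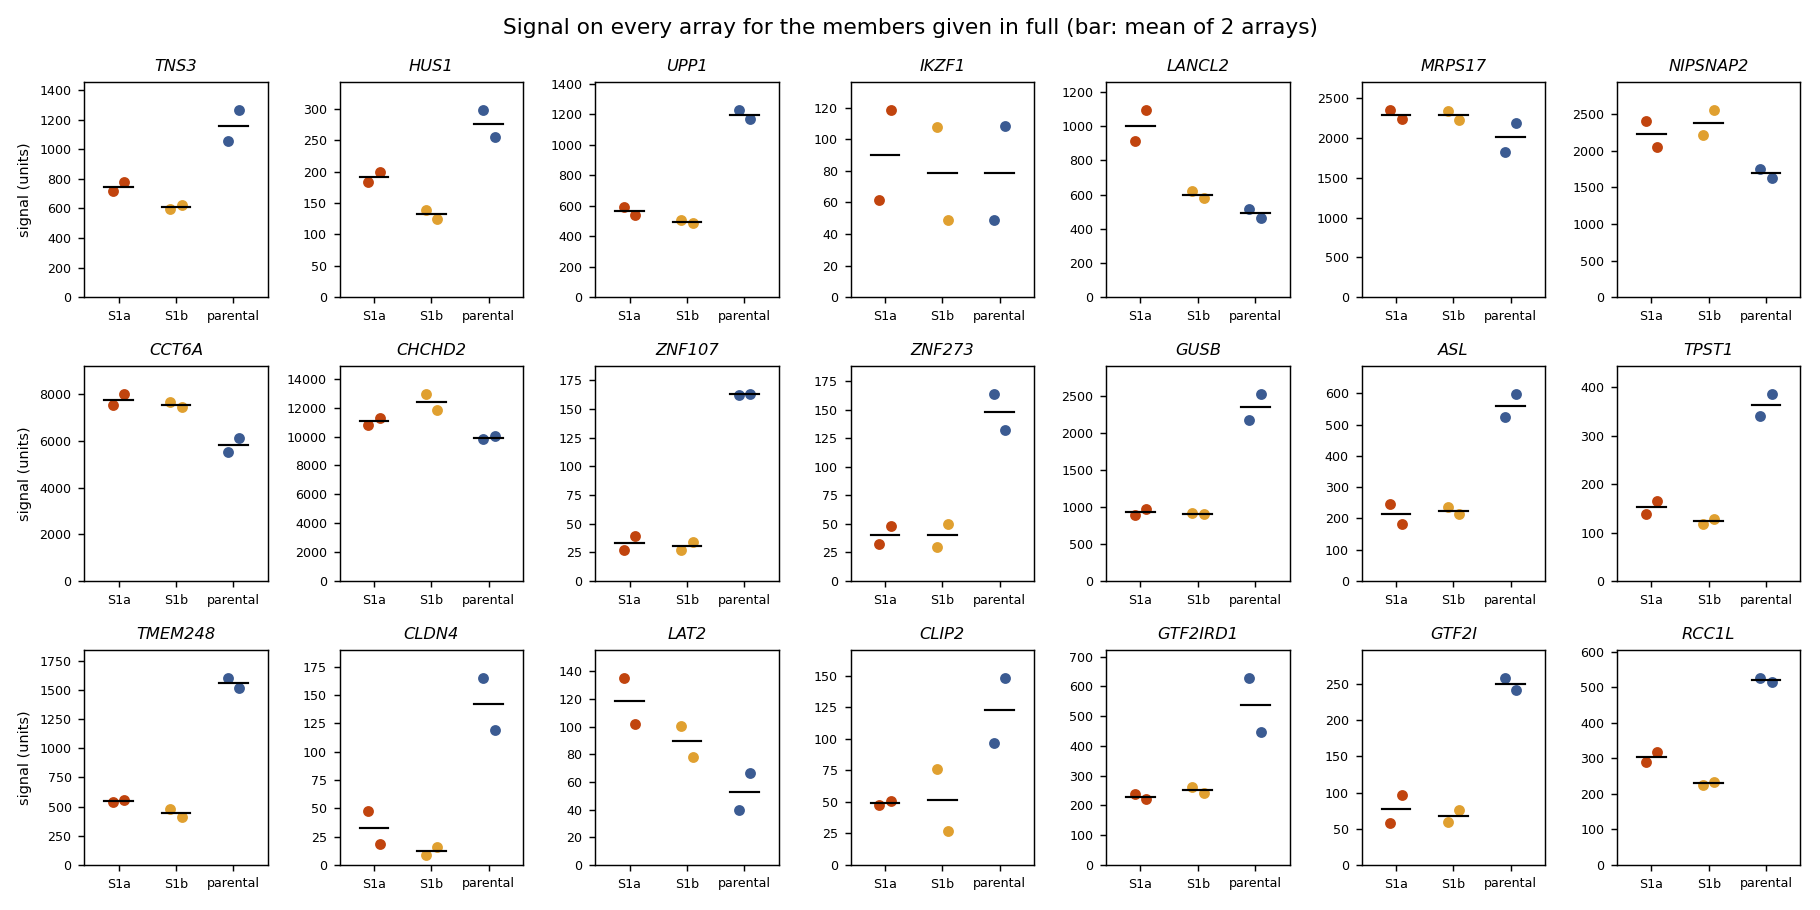
Signal in units on every array for the 21 members whose values are given for each array, with S1a, S1b and parental from left to right, each panel on its own scale from 0 and bars at the mean of 2 arrays. TMEM248 and GUSB show tight isolate arrays well below the parental ones, while IKZF1 overlaps in all groups.

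The next stretch of the long arm, from GUSB to PMS2P8, held 10 tested genes, of which 6 were called lower in S1a and 5 in S1b, where 19.9% and 20.9% of all genes were. GUSB, the lysosomal beta-glucuronidase, which is often used as a reference gene in expression assays, had 885 and 967 units in S1a and 912 and 907 in S1b, against 2167 and 2522 in parental cells. Both isolates stood near the same level, at 39.5% and 38.8% of parental. ASL, the argininosuccinate lyase of the urea cycle, had 246 and 182 units in S1a and 237 and 213 in S1b, against 524 and 598 in parental cells. Its groups did not overlap, with log2 changes of -1.39 and -1.30. TPST1, which sulphates tyrosines of secreted proteins, had 138 and 166 units in S1a and 118 and 129 in S1b, against 340 and 386 in parental cells. TMEM248, a transmembrane protein of little known function, had 535 and 553 units in S1a and 483 and 413 in S1b, against 1602 and 1514 in parental cells. The log2 change was -1.24 and -1.53 for TPST1 and -1.51 and -1.79 for TMEM248, with no overlap for either gene.

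CRCP, a subunit of RNA polymerase III, averaged 166 ± 5.04 units in S1a and 209 ± 0.106 in S1b, against 454 ± 126 in parental cells (SD, n = 2 each). A second CRCP probe set gave a smaller change, of -0.75 and -0.71 where the first gave -1.41 and -1.07. TYW1, an enzyme of transfer RNA modification, differed least among these lower genes, with log2 changes of -0.52 and -0.34. The 4 other tested genes of this stretch belong to duplicated families. STAG3L4, POM121 and STAG3L3 averaged 36.2, 51.2 and 46 units in S1a and 26.5, 71.1 and 37.9 in S1b, against 73.8, 98 and 70.5 in parental cells. POM121, a nucleoporin, overlapped with the parental arrays in S1b, where its replicates were 107 and 34.8 units. PMS2P8, a pseudogene of a mismatch repair gene, overlapped in both isolates, with log2 changes of 0.22 and 0.21.

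The Williams-Beuren block held 15 tested genes, of which CLDN4 passed the filter only through its parental arrays. Lower on non-overlapping arrays were 13 in S1a and 13 in S1b, beside 37.1% and 36% of all genes. Over all genes, limma called 19.9% lower and 19.4% higher in S1a, and 20.9% and 20.7% in S1b. Of the 15 genes of the block, limma called 9 lower and 1 higher in S1a, and 12 lower and none higher in S1b. The smallest changes in the block were those of NSUN5, BCL7B and BUD23. NSUN5, a methyltransferase of ribosomal RNA, had log2 changes of -0.21 and -0.29. BCL7B, a subunit of the BAF chromatin remodeller, had -0.17 and -0.19, and BUD23, another methyltransferase of ribosomal RNA, -0.14 and -0.11. The direction of BUD23 in both isolates, and of BCL7B in S1a, turned with median centring. BAZ1B and TBL2 lie between NSUN5 and BUD23 and differed more. BAZ1B, a subunit of ISWI chromatin remodellers, had -0.48 and -0.76, and TBL2 had -0.65 and -0.45. The syntaxin gene STX1A had -0.49 and -0.59 and the mitochondrial hydrolase ABHD11 -0.48 and -0.35. NSUN5 has near-identical pseudogene copies on the same chromosome arm, so its signal is uncertain.

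CLDN4, a tight junction claudin, had 47.5 and 18.5 units in S1a and 8.52 and 15.8 in S1b, against 165 and 119 in parental cells. Its isolate arrays were dim and the difference is at least 3.23-fold in each isolate. Its neighbour and relative CLDN3 had a mean of 29.2 units over all arrays and was not tested. EIF4H, a translation initiation factor, averaged 2570 ± 120 units in S1a and 2418 ± 58.4 in S1b, against 4857 ± 166 in parental cells (SD, n = 2 each), which is 52.9% and 49.8% of parental. RFC2, a subunit of the clamp loader of DNA replication, averaged 1000 ± 58.1 units in S1a and 889 ± 38.8 in S1b, against 1429 ± 42.4 in parental cells, and its 2 probe sets gave -0.51 and -0.59 in S1a and -0.68 and -0.71 in S1b.

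Between EIF4H and RFC2 lies LAT2, an adaptor of immune receptor signalling, and it was the only gene of the long-arm part with all isolate arrays above both parental arrays. It had 135 and 102 units in S1a and 101 and 78.3 in S1b, against 39.4 and 66.1 in parental cells. The log2 change was 1.14 and 0.75, and the dimmer LAT2 probe set overlapped between groups. Its level was low in all groups, between 39.4 and 135 units, where 44 units was the filter.

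The last tested genes of the stretch were lower again. CLIP2, a microtubule linker, had 47.6 and 51.1 units in S1a and 76.4 and 27.1 in S1b, against 97 and 148 in parental cells. GTF2IRD1, a transcription factor related to GTF2I, had 237 and 223 units in S1a and 263 and 240 in S1b, against 628 and 447 in parental cells. GTF2I, the transcription factor TFII-I, had 58.4 and 96.5 units in S1a and 59.4 and 76.3 in S1b, against 258 and 242 in parental cells. The groups did not overlap for any of these genes, although the S1b replicates of CLIP2 lay far apart, and the log2 change of GTF2I was -1.68 and -1.83. GTF2I has duplicated copies nearby that could share its probes. RCC1L, a mitochondrial protein at the end of the stretch, had 290 and 318 units in S1a and 224 and 234 in S1b, against 526 and 514 in parental cells.

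Grouped by role instead of position, members called lower were found in each group. The calls come from the differences that chose the stretch, and over all genes 19.9% were called lower and 19.4% higher in S1a, and 20.9% and 20.7% in S1b. Of 8 tested genes of chromatin, transcription and DNA maintenance, 5 were called lower and none higher in either isolate. Of 8 genes of protein and RNA production, 4 were called lower and 1 higher (CCT6A) in either isolate. Of 8 metabolic enzymes and mitochondrial proteins, 5 were called lower in either isolate, and 1 higher in S1a (NIPSNAP2) and 2 in S1b (with CHCHD2). Of 10 genes of adhesion, cytoskeleton, membrane traffic and signal adaptors, a group that also held STAG3L3 and RCC1L, 4 were called lower and 2 higher in S1a, and 6 lower and none higher in S1b. Of the 3 zinc finger genes 2 were called lower in either isolate, and of 3 tested genes in no group 1 was. The zinc finger genes, CLDN4 in the adhesion group and STAG3L4 in no group passed the filter only through their parental arrays. Under at least 1 alternative processing, 9 of the 25 calls in S1a and 7 of the 26 in S1b ended, among them that of HUS1 in S1a under 10 alternatives and those of STX1A and CLIP2 in S1b under 10 each.

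**Figure D4:**
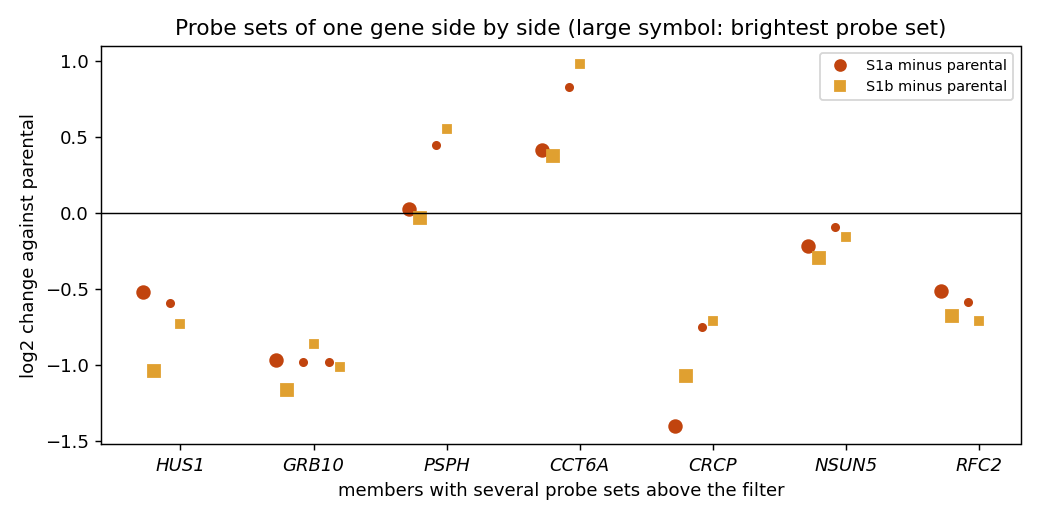
Log2 change against parental for the 15 probe sets of the 7 members with more than 1 probe set above 44 units, S1a as circles and S1b as squares, with the brightest probe set of each gene drawn larger. The probe sets of GRB10 and RFC2 lie close together, and those of CCT6A, CRCP and PSPH differ in size.

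Different probe sets of a gene mostly gave the same direction. Of the 7 genes with more than 1 probe set above 44 units, all 7 had probe sets of a single sign in S1a and 6 in S1b, with PSPH the exception. The 14 members that were not tested had mean signals from 1.04 to 43.9 units. They were PKD1L1-AS1, ZPBP, DDC, COBL, PHKG1, PMS2P4, AUTS2, FKBP6, FZD9, MLXIPL, CLDN3, ELN, LIMK1 and NCF1. LIMK1, a kinase that inactivates cofilin, lay just under the filter, with 43.4 and 26.9 units in S1a and 12 and 7.46 in S1b, against 109 and 64.6 in parental cells. Among the 14, all isolate arrays lay below both parental arrays in 3 (ZPBP, COBL and LIMK1) and above them in none. Among all genes tested, 37.1% were lower without overlap in S1a and 36% in S1b. The share over all genes under the filter was not counted, so nothing is read from this count of dim genes.

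S1b was compared with S1a for each of the 40 genes, a contrast that did not choose the stretch, although it uses the same isolate arrays. LANCL2 was lower in S1b, with 599 ± 27.6 units in S1b and 1003 ± 127 in S1a (SD, n = 2 each), a log2 change of -0.73 ± 0.12 (SE, limma adjusted p = 0.0175), and both S1b arrays lay below both S1a arrays. The 39 other genes did not pass (adjusted p from 0.19 to 0.998 with limma). An unadjusted limma p below 0.05 was seen in 5 of the 40, LANCL2 included, and in 1162 of all 7791 genes tested. By adjusted p, 1.42% of all genes tested were called lower and 0.462% higher in S1b. The LANCL2 call ended without S1a replicate 2 (log2 change -0.61, limma adjusted p = 0.192), without S1b replicate 1 (-0.78, 0.102), without S1b replicate 2 (-0.69, 0.142) and with no variance trend (0.169), and the 12 other alternatives that hold LANCL2 gave adjusted p-values from 0.0048 to 0.0422. LANCL2 was read through a single probe set with a shared-probe suffix, so leaving out such probe sets gives no value for it.

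**Figure D5:**
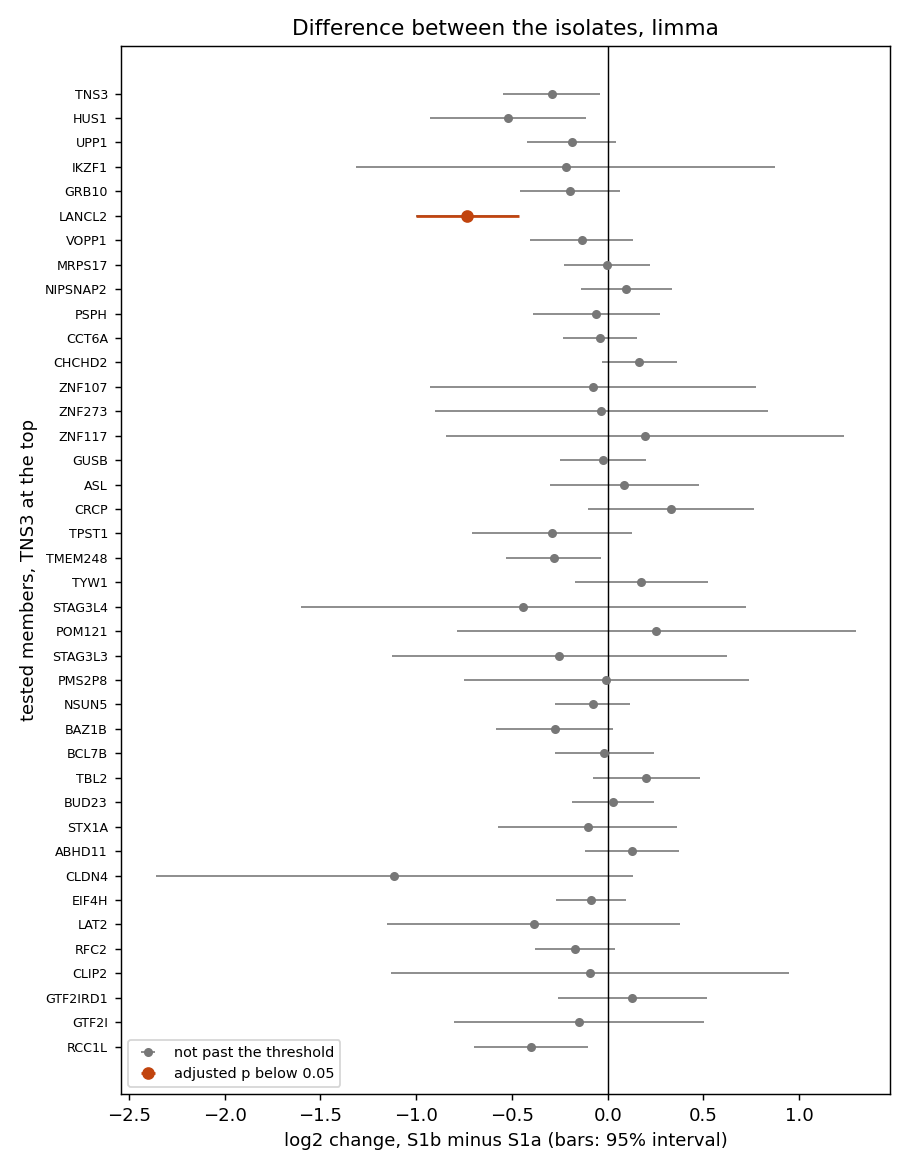
Log2 change of S1b minus S1a for the 40 tested genes, in chromosome order from the top, with 95% intervals from limma. LANCL2, in red, is the only gene past the threshold, and the intervals are wide for genes below 44 units in both isolates such as CLDN4 and ZNF117.

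In 5 of the other genes, CLDN4, STAG3L4 and the 3 zinc finger genes, both isolate means lay below 44 units, so no difference is given. The remaining 34 differed between the isolates by -0.52 (HUS1) to 0.33 (CRCP) on the log2 scale. The 95% interval reached 0.32 to either side of the value at the median over the 40 genes, and from 0.18 to 1.25 over single genes, so smaller differences between the isolates could not be seen. HUS1 gave -0.52 (interval -0.93 to -0.11, limma adjusted p = 0.21) and RCC1L -0.40 (-0.70 to -0.10, limma adjusted p = 0.19). On 17 of the 40 genes both S1b arrays lay below both S1a arrays, and on 5 above, beside 23.9% and 25.7% of all genes tested. At least 1.5-fold lower in S1b were 2 of the 40, LANCL2 and the dim CLDN4, and higher none, beside 3.89% and 2.25% of all genes. The median difference was -0.083, against 0.01 over all genes. It was -0.14 without S1a replicate 1, -0.045 without S1a replicate 2, -0.054 with the mean of a gene's probe sets and -0.017 with suffixed probe sets left out.

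The nearest genes on either side were read in the same way. Before TNS3, IGFBP3 and IGFBP1, which encode binding proteins of insulin-like growth factors, were higher in the isolates: IGFBP3 averaged 2943 ± 15.4 units in S1a and 3451 ± 193 in S1b, against 1061 ± 26.4 in parental cells (SD, n = 2 each). IGFBP1 had log2 changes of 1.34 and 1.40. The 8 other tested genes before TNS3 ran from -0.82 to 0.15 in S1a and from -0.73 to 0.10 in S1b. After RCC1L, the 10 next tested genes all had log2 changes below 0 in both isolates, with medians of -0.45 in S1a and -0.55 in S1b. HIP1, an endocytic adaptor, averaged 25.2 ± 10.2 units in S1a and 33.3 ± 10 in S1b, against 130 ± 20.5 in parental cells. Its isolate means lay below 44 units, so it passed the filter only through its parental arrays. HSPB1, a small heat shock protein, averaged 1228 ± 23.1 units in S1a and 978 ± 112 in S1b, against 2060 ± 13.1 in parental cells. NSUN5P1, the first gene past RCC1L, had -0.42 and -0.38, and IGFBP3, the last one before TNS3, had 1.47 and 1.70.

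On the rest of chromosome 7, 98 genes were tested before TNS3 and 213 after RCC1L. Before TNS3, 29.6% were called lower and 14.3% higher in S1a, and 26.5% and 13.3% in S1b. After RCC1L, 39% were called lower and 6.57% higher in S1a, and 39.4% and 8.92% in S1b, beside the 19.9% and 19.4% (S1a) and 20.9% and 20.7% (S1b) over all genes. The median log2 change was -0.20 and -0.15 before TNS3 and -0.29 and -0.31 after RCC1L.

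Several members are subunits of complexes or steps of pathways whose other genes lie elsewhere. Of 19 partner genes, 16 belong to members and 3 to SEC61G, which starts in the stretch but was not analysed here, and 18 were tested. In S1a 6 of the 18 rose and 2 fell, and in S1b 8 rose and 2 fell, where 19.4% of all genes rose and 19.9% fell in S1a, and 20.7% and 20.9% in S1b. The 6 tested partners of CCT6A in the chaperonin ran from -0.03 to 0.45 in S1a and from 0.04 to 0.48 in S1b, and 1 rose in S1a and 3 in S1b, a share in S1a near that over all genes. CCT7 rose in both, by 0.45 ± 0.1 in S1a and 0.48 ± 0.1 in S1b (log2, SE, limma adjusted p = 0.00632 and 0.0037). Where RFC2 was lower, 2 of its 4 partners in the clamp loader rose in each isolate and none fell: RFC4 by 0.51 ± 0.082 and 0.40 ± 0.082 (limma adjusted p = 0.000978 and 0.00359), and RFC3 by 0.30 ± 0.099 in each (limma adjusted p = 0.0345 and 0.0345). Of the 3 partners of HUS1, RAD17, which loads the clamp, rose in both isolates (0.49 ± 0.11 and 0.41 ± 0.11, limma adjusted p = 0.0048 and 0.0111), and RAD9A fell in S1a (-0.51 ± 0.15, limma adjusted p = 0.0245) with -0.36 ± 0.15 in S1b (0.0851).

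Upstream of PSPH, the serine synthesis genes PHGDH and PSAT1 rose in both isolates. PHGDH, the first enzyme of the pathway, averaged 351 ± 3.91 units in S1a and 357 ± 88.7 in S1b, against 124 ± 18.8 in parental cells (SD, n = 2 each), a rise of 1.48 ± 0.2 in each (log2, SE, limma adjusted p = 0.000337 and 0.000278). PSAT1 rose by 0.46 ± 0.085 in S1a and 0.25 ± 0.085 in S1b (limma adjusted p = 0.00219 and 0.0366). Of the 3 subunits of the protein translocon that join SEC61G, SEC61B fell in both isolates (-0.37 ± 0.11 and -0.49 ± 0.11, limma adjusted p = 0.0205 and 0.0052) and SEC61A2 in S1b, where it lay below 44 units and was at least 2.14-fold lower (limma adjusted p = 0.029).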

How the data were processed

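The authors deposited intensities, 1 linear signal for each probe set on each array. Per the submitters' processing notes MAS5 made them; its version and scaling target are not given in the sources used here. The table held 22277 probe sets, of which 62 are controls. A probe annotation table gave 19064 of the others 1 gene name, 1043 several and 2108 none. Names and order on the chromosome came from a RefSeq table (GRCh38.p14), which matched 19052. The array data name no genome build, so the only coordinates printed are those of RefSeq promoters.

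The analysis used log2(signal + 3.942), where 3.942 is the 10th percentile of the signals, which shrinks the changes of dim genes. Each gene was represented by its brightest probe set on average, and genes below the 40th percentile (44 units) were left out. For ZNF107, ZNF273, CLDN4 and SEC61A2, where the dimmer mean lay below 44 units, the brighter mean over 44 is given as "at least". Other genes with a mean below 44 units, such as ZNF117, STAG3L4, STAG3L3, LIMK1 and HIP1, are given by their signals only. A model of 3 group means over the 6 arrays was fitted with limma (version 3.58.1, R version 4.3.3), letting variances follow the mean signal, and p-values were adjusted by Benjamini-Hochberg over all 7791 genes. The fit was tested on simulated data. Arrays have no read depth, and 2 arrays per population limit the precision. The 21 members given array by array were the 8 with the lowest mean change, those above both parental arrays in both isolates, the 4 tested ones next to each end and those called between the isolates. Members, blocks, role groups and partner genes were chosen with earlier results of these data known.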

Additional observations from a re-analysis of the deposited data

Results flagged for a closer look

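LANCL2 differed between the isolates by -0.73 on the log2 scale (S1b minus S1a, limma adjusted p = 0.0175), which is the difference of the isolates' own changes against parental, 0.29 in S1b and 1.03 in S1a. It was the only one of the 40 tested genes of the stretch to do so. Both S1b arrays lay below both S1a arrays, and the values without single arrays are given with the result above.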

How the results depend on the processing

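Every count and median of the 40 genes was recomputed under 18 alternatives, 6 of them leaving out 1 array. No change of a gene called against parental turned its direction in these. The S1a median of -0.60 was -0.52 with no filter and with a filter at the 60th percentile, -0.41 with median centring, -0.69 with the mean of a gene's probe sets and -0.89 with shared-probe suffixes left out. The S1b median of -0.78 was -0.81 with a pseudocount of 1 and -0.61 with 32, -0.66 with no filter and -0.64 with a filter at the 60th percentile, -0.62 with quantile normalization, -0.59 with median centring, -0.86 without suffixed probe sets and -0.72 with probe sets fitted singly. The difference between the isolates, -0.083 at the median, was -0.054 with the mean of probe sets and -0.017 without suffixed ones. Leaving out suffixed probe sets left 17 members tested. Of these, 11 were called lower and 2 higher in S1a, and 10 lower and 3 higher in S1b, with 0 called between the isolates. Over all genes, this setting called 17.6% lower and 18.6% higher in S1a, and 19.3% and 20.4% in S1b. Genes called higher numbered 7 in S1a and 6 in S1b with median centring, beside 30% and 31.4% of all genes. With probe sets fitted singly, 5 of 48 probe sets were called higher in S1b, beside 17.8% of all probe sets tested. With no variance trend 0 were called between the isolates, where LANCL2 had an adjusted p of 0.169. The cause of these shifts was not tested.

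Without single arrays, the median ran from -0.68 to -0.57 in S1a and from -0.85 to -0.63 in S1b. Between the isolates the median ran from -0.14 to -0.045. Counts of calls moved as well, among the members and over all genes. Each such fit leaves 1 population with a single array, so these counts are not given and nothing is read from them. Replicate numbers are shared between groups, but deviations of same-numbered arrays did not go together (correlations of -0.058, -0.0046 and -0.067 across genes). With the replicate number as a block, 20 members were called lower and 4 higher in S1a, 21 and 3 in S1b, and 1 between the isolates. Over all genes, this setting called 17.9% lower and 17.5% higher in S1a, and 19.2% and 19.1% in S1b. Between the isolates it called 0.655% lower and 0.167% higher.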
